A study of Homo sapiens with 2 samples.

Results

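Retinoic acid is made inside cells from vitamin A and acts through nuclear receptors. The genes described here are 9 of that pathway: the retinaldehyde dehydrogenases ALDH1A1, ALDH1A2 and ALDH1A3, which carry out its synthesis, the carrier CRABP2, the receptors RARA, RARB and RARG, their dimer partner RXRA, and the degrading enzyme CYP26B1. They are 9 of 19775 genes on the array, and were taken as all 23 probe sets, of 41097 with a single gene symbol, whose only symbol in the platform annotation is one of these names. The genes were chosen with the differences between these arrays already known, so the values are a description and carry no test. The RNA came from cells labelled as U87, an established human glioblastoma line grown in DMEM with serum, transfected with Lipofectamine and collected after 48 hours. One sample was given an siRNA targeting FOXM1, which encodes a forkhead factor of dividing cells, and the other with a non-target siRNA. Each was read on 1 array. With 1 array per group there is no spread between samples, no p-value and no replicate check of any difference.

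In a cell, retinol is first oxidised to retinal by enzymes such as RDH10, and retinal is then oxidised irreversibly to retinoic acid by the ALDH1A enzymes. Retinoic acid is carried to the nucleus by CRABP2, where dimers of an RAR and an RXR sit on paired half-sites in the DNA and switch from repression to activation when the ligand binds. CYP26 enzymes hydroxylate retinoic acid and so end the signal, and CYP26A1, RARB and DHRS3 are themselves textbook targets of the receptors. In gliomas, ALDH1A3 is known as a marker of the mesenchymal subtype.

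Promoter sequences are shown for the synthesis genes, which held the furthest members in both directions, and for the start of RARB that carries the classical response element of this pathway. The sequences are from RefSeq on GRCh38.p14, 250 bases before to 50 after an annotated start, written 5′ to 3′ on the gene's strand. Capitals mark the CCAAT box in the ALDH1A promoters and, in RARB, the DR5 element, a direct repeat of half-sites spaced by 5 bases.
ALDH1A3, chr15:100879581-100879880, plus strand: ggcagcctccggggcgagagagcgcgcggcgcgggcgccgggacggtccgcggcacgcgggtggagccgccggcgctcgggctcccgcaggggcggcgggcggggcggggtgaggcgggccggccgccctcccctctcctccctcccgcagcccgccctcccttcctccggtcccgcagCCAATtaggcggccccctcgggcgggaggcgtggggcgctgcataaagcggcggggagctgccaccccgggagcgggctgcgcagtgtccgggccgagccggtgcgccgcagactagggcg
ALDH1A2, chr15:58065662-58065961, minus strand: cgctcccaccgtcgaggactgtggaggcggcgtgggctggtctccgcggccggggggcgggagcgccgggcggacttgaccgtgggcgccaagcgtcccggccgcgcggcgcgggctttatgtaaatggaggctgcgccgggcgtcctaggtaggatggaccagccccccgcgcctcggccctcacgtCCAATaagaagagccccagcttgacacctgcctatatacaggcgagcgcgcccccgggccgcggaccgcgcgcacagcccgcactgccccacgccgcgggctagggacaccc
ALDH1A1, chr9:72953004-72953303, minus strand: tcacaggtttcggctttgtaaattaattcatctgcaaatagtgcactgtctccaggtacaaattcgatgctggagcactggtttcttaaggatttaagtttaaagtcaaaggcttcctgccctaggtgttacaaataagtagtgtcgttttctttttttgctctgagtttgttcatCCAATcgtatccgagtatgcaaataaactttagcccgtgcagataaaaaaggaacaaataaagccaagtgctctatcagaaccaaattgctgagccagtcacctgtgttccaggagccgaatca
RARB, chr3:25428013-25428312, plus strand: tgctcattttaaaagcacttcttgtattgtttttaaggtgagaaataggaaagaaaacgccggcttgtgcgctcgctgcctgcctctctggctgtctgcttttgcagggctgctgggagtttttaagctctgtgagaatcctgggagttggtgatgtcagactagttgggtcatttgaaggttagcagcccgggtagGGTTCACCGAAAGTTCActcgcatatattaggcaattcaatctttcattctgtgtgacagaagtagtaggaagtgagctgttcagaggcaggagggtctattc

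The RARB element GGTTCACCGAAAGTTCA began 53 bases before the start (position -53). A DR5 element was searched on both strands as a repeat of half-sites of the form A or G, G, G or T, TCA, and was found in 31 of 35116 promoters of 300 bases, or 0.0883%. Of 16 promoters listed for the 9 genes, only this 1 held it, and none held such half-sites spaced by 2 bases (14 of all promoters, 0.0399%) or by 1 base (46, 0.131%). The single half-site AGGTCA, on either strand, was in 2 of the 16, against 13.8% of all promoters, at another start of RARB and at 1 of 3 starts of RARA. The CCAAT box began at position -71 in ALDH1A3, -62 in ALDH1A2 and -74 in ALDH1A1. It was in 5 of the 16 promoters and in 34.6% of all promoters, so its presence does not set these genes apart. The second start listed for ALDH1A2 had none. The forkhead core TGTTTA was in 1 of the 16, a further start of RARB, where it reads TAAACA on the gene's strand, against 12.3% of all promoters. TGANTCA, the AP-1 motif, was in none of the 16, against 7.71%. TATAAA was in 1, that of CYP26B1, against 11.5%, and began at position -248, near the far end of the sequence. The promoters of ALDH1A3 and ALDH1A2 shown here were 81.7% and 74.0% G and C, and those of ALDH1A1 and RARB 40.3% and 46.7%.

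The signals are linear MAS5 intensities as deposited, scaled so that the trimmed mean was 500.07 on both arrays. A signal was taken as above background if it exceeded the floor, the 90th percentile of 135 probe sets for olfactory receptor genes, which was 77.7 on the FOXM1 siRNA array and 60.8 on the non-target siRNA array. A difference is the log2 signal on the FOXM1 siRNA array minus that on the non-target siRNA array. Where only 1 array was above its floor, the other is set at its floor and the fold is a bound, written "at least". For 416 detected genes of this kind the floored values did not differ in that direction. They were given no fold and count as detected but not past 2-fold. The only error at hand is the disagreement between probe sets of one gene. They read the same RNA, so it holds no spread between samples. Over 5476 genes with several probe sets above both floors, the log2 differences had an SD of 0.50 within a gene. This puts an SD of 0.71 on the difference between a pair of probe sets. Of all 13865 detected genes, 16.0% passed 2-fold on the higher side and 15.4% on the lower side, always with the FOXM1 siRNA array set against the non-target siRNA array. With the hybridisation controls set equal in place of the deposited scaling, these shares were 11.3% and 23.1%, and the median over all detected genes was -0.30 in place of -0.02.

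The labels could be checked only in part. The single FOXM1 probe set read 1343 on the FOXM1 siRNA array and 1520 on the non-target siRNA array, a log2 difference of -0.18 that is smaller than the SD within a gene. CDKN2A, MTAP and CDKN2B are genes of the 9p21 region, which U87 cells are known to have lost. On the FOXM1 siRNA array CDKN2A was at 421, above the floor, and MTAP and CDKN2B were at 76.3 and 31.8, both below it. On the non-target siRNA array these genes were at 3467, 619 and 350, all above the floor. Of 11 glial markers, 6 were above the floor on each array, with summed signals of 42652 and 23584 on the FOXM1 siRNA and non-target siRNA arrays, most of it VIM (40017 against 21179). Single glial markers went both ways: NES was at 261 against 54.0, below the floor, while SOX2 was at 59.2, below the floor, against 680, and S100B at 2.21, below the floor, against 87.8. The S100B bound was only 1.13-fold lower, and the other SOX2 probe sets gave a bound of 1.46-fold lower or no fold. SLC1A3 was at 1278 against 874 and SOX9 at 613 against 325. FABP7 was at 93.0 against 30.4, below the floor, and OLIG2 at 266 against 270. GFAP, AQP4 and SLC1A2 were below both floors. Of 8 epithelial markers, 4 were above the floor on each array, with summed signals of 1197 and 12797, most of the non-target siRNA sum from DSP (336 against 9707) and KRT18 (380 against 2655), with EPCAM, KRT19, CLDN4 and ESRP1 below the floor on the non-target siRNA array. CDH1 was at 20.9, below the floor, on the FOXM1 siRNA array and 113 on the non-target siRNA array, at least 1.45-fold lower. EPCAM went the other way, at 98.8 on the FOXM1 siRNA array and 48.1 on the non-target siRNA array, and KRT8 was at 265 and 220. The siRNA and a difference between the cells on the arrays cannot be told apart, and the part of these markers in the results below was not tested. In bulk RNA, fewer cells that make a transcript and less of it per cell also cannot be told apart.

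The 3 synthesis genes gave 3 different pictures. ALDH1A3 was far higher and ALDH1A2 far lower on the FOXM1 siRNA array, and ALDH1A1 was below background on both arrays. ALDH1A3, also known as RALDH3, read 15593 on the FOXM1 siRNA array and 714 on the non-target siRNA array in probe set 203180_at, both well above the floors. That is a 21.8-fold higher signal, a log2 difference of 4.45. It ranked 28 from the top among 11395 genes above both floors. A second probe set of ALDH1A3, 1558649_at, read 7.93 and 18.2 on the FOXM1 siRNA and non-target siRNA arrays, below both floors, and gave no fold.

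ALDH1A2, the enzyme that supplies most retinoic acid in the early mouse embryo, went the other way. Its probe set 207016_s_at read 12.3 on the FOXM1 siRNA array, below the floor, and 2025 on the non-target siRNA array. The transcript was thus at least 26.0-fold lower, a log2 difference of at most -4.70. Among 1003 genes whose lower value is a bound in this way, it ranked 5 by the size of the bound. All these bounds use the same floor on the FOXM1 siRNA array, so the rank only orders the signals on the non-target siRNA array. The second probe set, 207015_s_at, read 68.0, below the floor, on the FOXM1 siRNA array and 92.5 on the non-target siRNA array, a bound of only 1.19-fold lower. Both probe sets of ALDH1A2 were below the floor on the FOXM1 siRNA array and above it on the non-target siRNA array, but the dim one leaves little room above its floor to show a difference. The median over both was at most -2.48 on the log2 scale. IDs ending in _s_at mark probes that match several transcripts, and both carry that ending.

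ALDH1A1, the cytosolic enzyme widely used as a stem cell marker, had a single probe set, at 3.99 on the FOXM1 siRNA array and 6.26 on the non-target siRNA array. Neither signal was above background, so no fold is given. Across the trio, an ALDH1A3 signal was measured on both arrays, an ALDH1A2 signal on the non-target siRNA array alone and an ALDH1A1 signal on neither. A difference of at least 8-fold in the direction seen was found for 2.73% of detected genes on the higher side and 1.11% on the lower side.

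**Figure D1:**
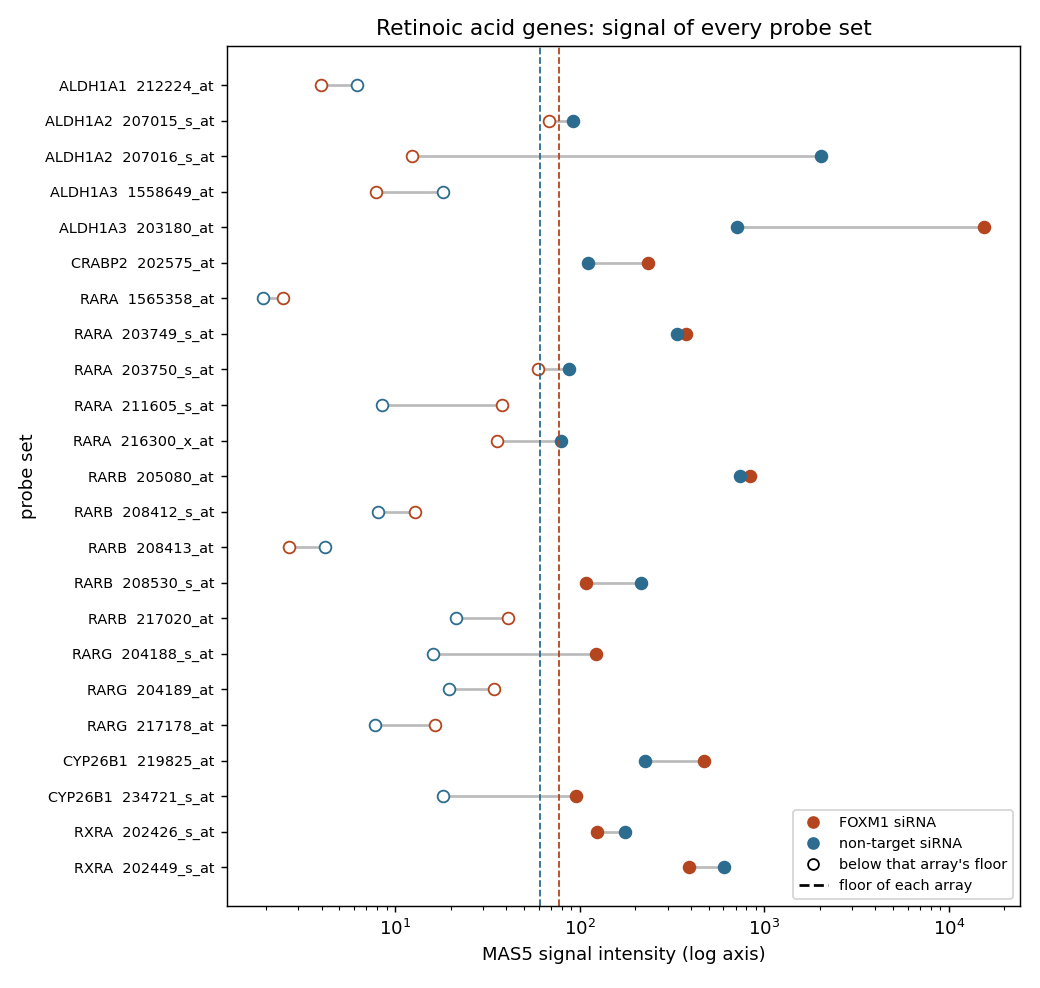
MAS5 signal intensity (log axis) of each of the 23 probe sets on the FOXM1 siRNA array (orange) and the non-target siRNA array (blue), with open circles for signals below that array's floor and dashed lines at the floors. The longest gaps are those of ALDH1A2 (12.3 against 2025) and ALDH1A3 (15593 against 714); 9 probe sets lie below both floors.

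The carrier CRABP2 and the degrading enzyme CYP26B1 were each just over 2-fold higher on the FOXM1 siRNA array. CRABP2, which hands retinoic acid to the receptors, read 235 on the FOXM1 siRNA array and 111 on the non-target siRNA array in its single probe set, a 2.11-fold higher signal and a log2 difference of 1.08. CYP26B1 read 470 on the FOXM1 siRNA array and 226 on the non-target siRNA array in probe set 219825_at, which is 2.08-fold higher, a log2 difference of 1.06. Its second probe set, 234721_s_at, read 95.5 on the FOXM1 siRNA array and 18.2, below the floor, on the non-target siRNA array, at least 1.57-fold higher. The probe sets of CYP26B1 thus went the same way. A difference of this size was common: 27.0% of the 11395 genes above both floors differed by at least as much as CRABP2. With the hybridisation controls set equal, both stayed higher but were under 2-fold, at 0.78 for CRABP2 and 0.75 for CYP26B1 on the log2 scale.

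Among the receptors, RARG alone passed 2-fold, and only just. Its probe set 204188_s_at read 123 on the FOXM1 siRNA array and 16.1, below the floor, on the non-target siRNA array, so that it was at least 2.02-fold higher. Its other probe sets, 204189_at and 217178_at, read 34.5 and 16.4 on the FOXM1 siRNA array and 19.6 and 7.75 on the non-target siRNA array, below the floors throughout. With the higher of the floors applied to both arrays the RARG bound was 0.66 on the log2 scale, under 2-fold, and with each of 4 other scalings it was between 0.71 and 0.87. With a pseudocount of 50 RARG was at 1.39 and with no floor at 2.93, which both use the non-target siRNA signal below its floor. With a floor 2 times as high RARG was not detected.

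RARA, the most widely expressed receptor of the family, read 376 on the FOXM1 siRNA array and 335 on the non-target siRNA array in probe set 203749_s_at, a log2 difference of 0.17. A pair of its probe sets was above the floor on the non-target siRNA array only. They were 203750_s_at, at 59.4 and 88.0 on the FOXM1 siRNA and non-target siRNA arrays, and 216300_x_at, at 35.6 and 79.8, with bounds of 1.13-fold and 1.03-fold lower. The remaining ones, 211605_s_at (38.2 against 8.46) and 1565358_at (2.48 against 1.92), were below both floors. The brightest probe set of RARA therefore differed by less than the SD within a gene, and the dim ones give no firm direction.

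RARB is itself a target of its own ligand through the element printed above. Its brightest probe set, 205080_at, read 835 on the FOXM1 siRNA array and 743 on the non-target siRNA array, a log2 difference of 0.17. Its other detected probe set, 208530_s_at, read 108 on the FOXM1 siRNA array and 215 on the non-target siRNA array, a log2 difference of -0.98, or 1.98-fold lower. These probe sets of 1 gene disagreed by -1.15 on the log2 scale, more than the SD of 0.71 for such a pair, and which RARB transcript each one reads is not settled by the files used here. Probe sets 217020_at, 208412_s_at and 208413_at of RARB read 41.2, 12.8 and 2.65 on the FOXM1 siRNA array and 21.5, 8.06 and 4.18 on the non-target siRNA array, below both floors. The median over the detected probe sets of RARB was -0.41.

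RXRA, the common partner of the RARs and of several other nuclear receptors, was lower in both of its probe sets by less than 2-fold. Probe set 202449_s_at read 390 on the FOXM1 siRNA array and 604 on the non-target siRNA array, a log2 difference of -0.63, and 202426_s_at read 124 and 176, a log2 difference of -0.51. These differed from each other by less than the SD for a pair of probe sets, and 49.1% of genes above both floors differed by at least as much as the first.

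Over the 9 genes, 8 were detected on at least 1 array, of which 4 were past 2-fold on the higher side (ALDH1A3, CRABP2, CYP26B1 and RARG), 1 on the lower side (ALDH1A2) and 3 under 2-fold (RARA, RARB and RXRA), against the background of 16.0% higher and 15.4% lower. By probe set, 14 of 23 were above the floor on at least 1 array, 8 of them on both. Of the 14, 4 passed 2-fold upwards and 1 downwards, as did 15.4% and 13.6% of all 26582 detected probe sets with a single symbol. The genes were picked from these same arrays, so nothing is read from these shares. The count of 4 rests on values close to the threshold, since CRABP2, CYP26B1 and RARG lay between 1.02 and 1.08 on the log2 scale. The median log2 difference of the 8 was 0.59, against -0.02 over all detected genes.

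**Figure D2:**
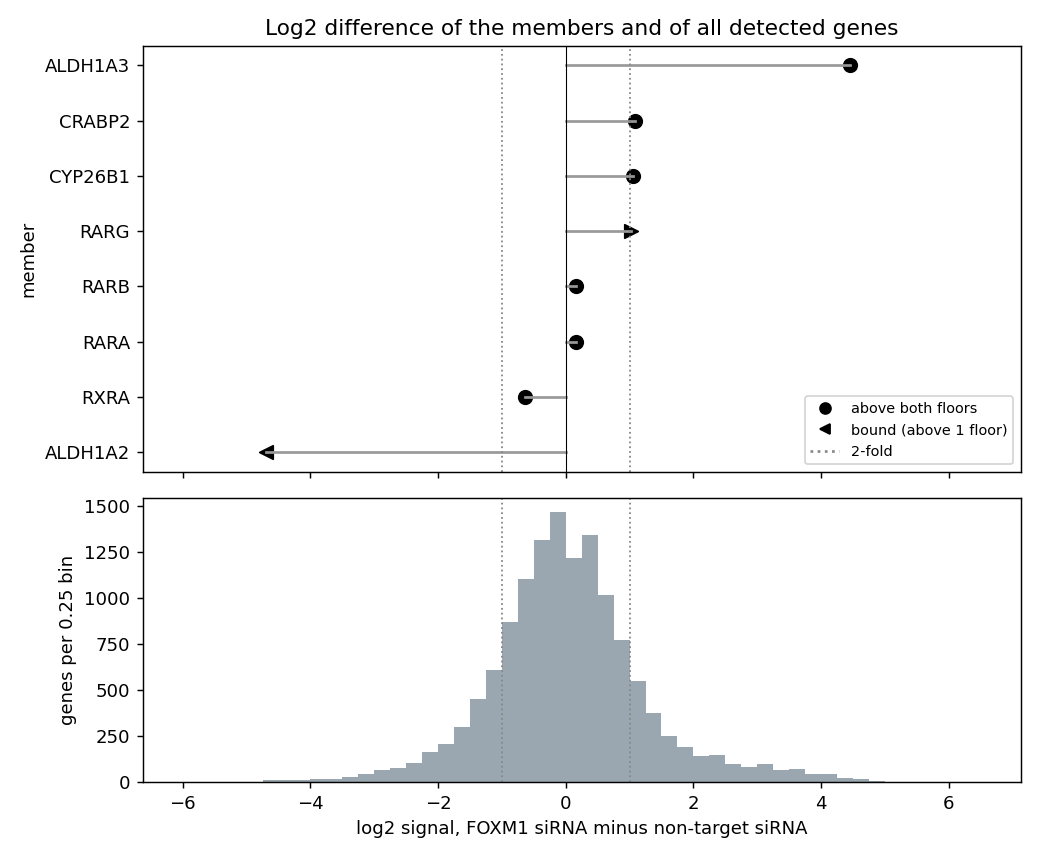
Upper panel, log2 difference (FOXM1 siRNA minus non-target siRNA) of the 8 detected genes, with triangles where the value is a bound. Lower panel, the number of genes per 0.25 bin of the same difference, for the 13449 detected genes that have one. Dotted lines mark 2-fold. ALDH1A3 at 4.45 and ALDH1A2 at -4.70 lie in the thin tails and the other 6 genes between -0.63 and 1.08.

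The gene nearest to ALDH1A3 in its log2 difference was RAC2, a small GTPase, at 4.45 (12838 against 589 on the FOXM1 siRNA and non-target siRNA arrays). VAT1L followed at 4.45 (2432 against 111), and then AKR1C3 at 4.44 (1835 against 84.3). With 2 arrays the pattern of a gene is this 1 number, and 82 genes lay within 0.5 of it.

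RNA of genes whose products supply or remove retinal was compared through lists of other genes of the pathway. Retinal itself was not measured. Uptake and storage of retinol was at background for most genes: of 11 measured, only STRA6, the retinol uptake receptor, was detected, at 228 on the FOXM1 siRNA array and 121 on the non-target siRNA array, a log2 difference of 0.92, and 10, among them LRAT and RBP4, were below both floors. Of 19 enzymes measured that interconvert retinol and retinal, 11 were detected. Past 2-fold were 5 on the higher side and 1 on the lower side, against 16.0% and 15.4% of all detected genes, and the median was 0.38. The 1 lower was RDH10, the main retinol dehydrogenase of the mouse embryo, at 483 on the FOXM1 siRNA array and 1884 on the non-target siRNA array (log2 difference -1.96). Further RDH10 probe sets gave -2.47 and at most -2.07. DHRS3, which reduces retinal back to retinol, went the opposite way, at 2025 on the FOXM1 siRNA array and 572 on the non-target siRNA array (1.82). The broad-range reductases AKR1C3 and AKR1B10, which accept retinal among other substrates, were at 1835 against 84.3 (4.44) and 1049 against 118 (3.16), and close relatives of both can share probes. DHRS9 (1.81) and RDH5 (1.55) made up the rest of the higher genes.

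The other CYP26 enzyme detected moved against CYP26B1. CYP26A1, the form most readily induced by retinoic acid, read 19.0, below the floor, on the FOXM1 siRNA array and 260 on the non-target siRNA array, a log2 difference of at most -1.74. Of 7 measured genes for further binding proteins, CYP enzymes and receptors, 5 were detected, with 1 higher and 1 lower past 2-fold, against the same 16.0% and 15.4%, and a median of -0.54. The higher one was RORA, a retinoid-related orphan receptor, at 2523 on the FOXM1 siRNA array and 509 on the non-target siRNA array (2.31). RXRB was at 516 against 851 (-0.72), and FABP5, a carrier that can pass retinoic acid to PPARD, at 3550 against 5178 (-0.54). RXRG read 56.1 and 5.09, below both floors.

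Of 16 other aldehyde dehydrogenases, 14 were detected, of which 2 passed 2-fold upwards and 4 downwards, against 16.0% and 15.4% of all detected genes, and their median was -0.60. ALDH5A1, which oxidises succinic semialdehyde in GABA breakdown, read 7.65, below the floor, on the FOXM1 siRNA array and 1947 on the non-target siRNA array, at most -4.65. That bound is close to the one of ALDH1A2, which reflects only their similar signals on the non-target siRNA array. The second probe set of ALDH5A1 gave a bound of -0.70. ALDH7A1, of lysine breakdown, was at 720 against 2125 (-1.56) and ALDH16A1 at 28.5 against 195 (at most -1.33). ALDH3B1 was higher, at 576 against 93.3 (2.63), with further probe sets at 0.92 and at least 2.25. The other higher gene, ALDH4A1, was at 123 against 38.2, below the floor (at least 1.02). Its second probe set went the other way, at 21.9, below the floor, against 75.8, and gave no fold. ALDH1B1, the remaining lower gene, was at 333 against 758 (-1.19), with a second probe set at -0.06.

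Of 9 detected receptors that share RXR as a partner, 2 were lower, none higher and 7 under 2-fold, with a median of 0.06, where 31.4% of all detected genes differed by 2-fold or more. These counts use the brightest probe set of each gene. By that probe set VDR was at 0.88, but another of its probe sets was past 2-fold higher, at 1.22. The 2 lower were the thyroid hormone receptor gene THRB, at 168 on the FOXM1 siRNA array and 517 on the non-target siRNA array (-1.62), and the fatty acid receptor gene PPARG, at 240 and 659 (-1.46). All 12 measured coregulators were detected on both arrays, 1 higher and 3 lower past 2-fold, against 16.0% and 15.4% of all detected genes, with a median of -0.27. NCOA1, counted as under 2-fold at 0.25, had other probe sets at -1.22, -1.11 and -0.41. TBL1XR1, counted as under 2-fold at 0.97, had other detected probe sets at 1.03, 1.17, 1.64 and -0.10. PRAME, which represses RAR signalling, was at 156 on the FOXM1 siRNA array and 1040 on the non-target siRNA array (-2.73). The acetyltransferase gene CREBBP was at 797 and 2611 (-1.71), and TBL1X, of the NCOR complex, at 1338 and 2764 (-1.05). NRIP1, a ligand-dependent corepressor that is itself induced by retinoic acid, was at 4398 and 1456 (1.60), with a second probe set at 1.46.

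Genes known to respond to retinoic acid differed in both directions. Of 25 measured, 18 were detected, of which 8 passed 2-fold upwards and 5 downwards (median 0.76), against 16.0% and 15.4% of all detected genes. The list overlaps those above through STRA6, DHRS3, CYP26A1, LRAT and NRIP1. TGM2, tissue transglutaminase, was the furthest, at 2527 on the FOXM1 siRNA array and 236 on the non-target siRNA array (3.42), with further probe sets at 2.29 and at least 2.06. GPRC5A, a retinoic acid-induced membrane receptor, was at 1042 against 241 (2.11), and the adhesion molecule gene ICAM1 at 331 against 81.4 (2.02). The transcription factor gene TFAP2A was lower, at 400 against 2426 (-2.60). Of the genes described above as induced through retinoic acid, DHRS3, NRIP1 and GPRC5A stood on the higher side. CYP26A1, a bound, stood on the lower side, and RARB was near 0 or lower. Activity of the receptors was not tested.

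**Figure D3:**
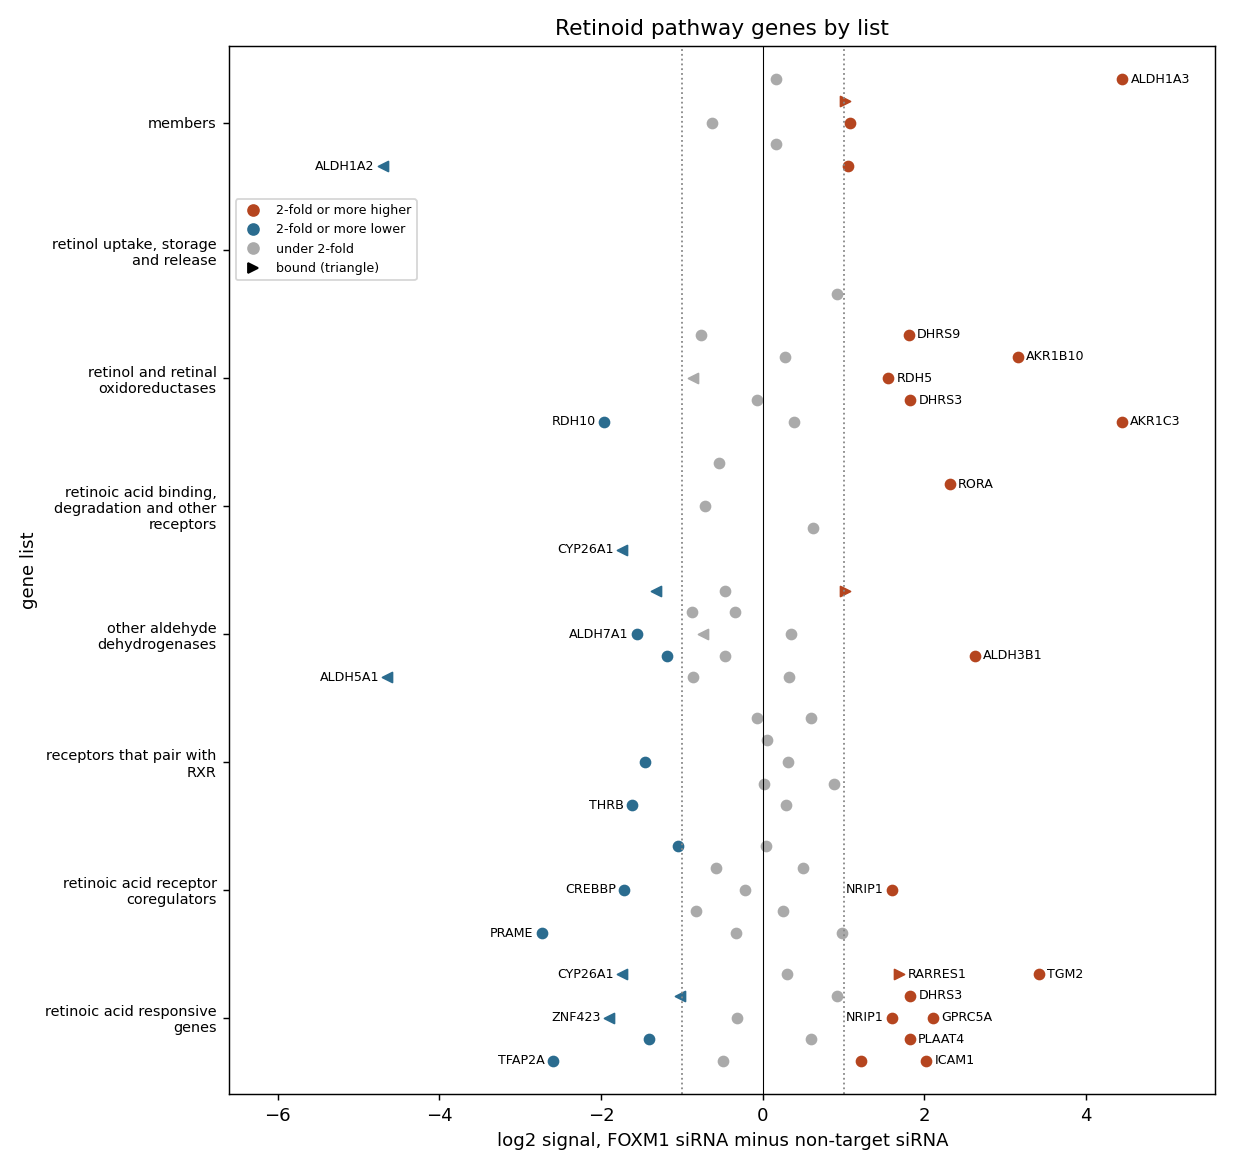
Log2 difference (FOXM1 siRNA minus non-target siRNA) of each detected gene of the 9-gene set (top row) and of 7 further lists; each point is a gene, triangles are bounds, dotted lines mark 2-fold, and genes beyond 1.5 are named. Points lie on both sides of 0 in 7 of the 8 rows, the exception being retinol uptake with its single detected gene.

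**Figure D4:**
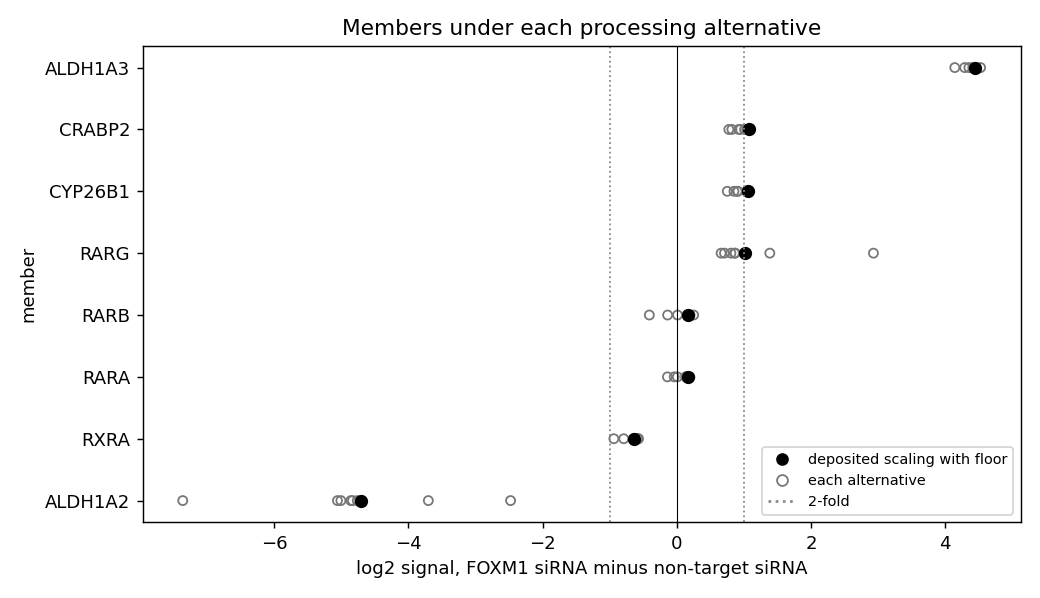
Log2 difference of the 8 detected genes with the deposited scaling and floor (filled) and under each processing alternative that gave a value (open). ALDH1A3 stays between 4.15 and 4.53 and ALDH1A2 at or below -2.48, while CRABP2, CYP26B1 and RARG lie on both sides of the 2-fold line and RARA and RARB on both sides of 0.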

How the data were processed

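Total RNA of 2 samples was labelled from the poly-A end with a 3' IVT kit and hybridised to 1 Affymetrix array each, per the labels' protocols. The values are signal intensities that the authors deposited on a linear scale for 54675 probe sets, made with MAS5 per the submitters' processing notes; the version is not given in the sources used here, and no detection calls come with the values. Both arrays share a trimmed mean (2% left out at each end) of 500.07, which assumes equal mean signal. The number of arrays limits the precision. For ACTB, 3' control signal over 5' control signal gave 4.21 on the FOXM1 siRNA array and 6.79 on the non-target siRNA array, and for GAPDH 1.09 and 1.26.

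Probe sets with 1 symbol in the platform annotation (41097 of 54675) were named, and symbols updated by gene ID for 99.9% (gene table of GRCh38.p14). Each gene took the probe set whose mean log2 signal over both arrays was highest. It counted as detected where that probe set passed the floor of either array, which held for 11395 genes on both arrays and for 2470 on a single one. Some listed genes are not analysed here.

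The 9 genes and all lists were chosen with earlier results of these data known. The named genes were the 9 with every probe set, FOXM1 and the 9p21 genes, up to 4 genes past 2-fold with the largest difference per list, and the 3 genes nearest to ALDH1A3 in log2 difference. Further genes named (STRA6, LRAT, RBP4, DHRS9, RDH5, RXRB, RXRG, FABP5, ALDH4A1, ALDH1B1, VDR, NCOA1, TBL1XR1, DSP, KRT18 and other markers) were chosen after their values were seen. Alternatives were other scalings, other floors, a pseudocount of 50, a 1.5-fold threshold, the median over the detected probe sets, and leaving out probe sets whose IDs end in _x_at or _s_at. The calculation was tested on simulated data with planted 8-fold shifts in genes above both floors. That test does not cover bounds or differences near 2-fold. Python 3.11.15, numpy 2.4.6, pandas 2.3.3, scipy 1.17.1 and statsmodels 0.14.6 (lowess, span 0.3) were used.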

Additional observations from a re-analysis of the deposited data

How the results depend on the processing

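ALDH1A3 lay between 4.15 and 4.53 on the log2 scale in the 10 alternatives that gave it a value, and ALDH1A2 between -7.36 (no floor) and -2.48 (median of probe sets) in 9; without probe sets whose IDs end in _x_at or _s_at ALDH1A2 had none left, nor had RARA, RARG and RXRA. As reported, 4 genes were higher and 1 lower. The number higher was 1 with median centring or with equal hybridisation controls, and 2 with a floor 2 times as high or a pseudocount of 50. It was 3 with quantile or loess scaling, the higher floor on both arrays or the median of probe sets. Without _x_at and _s_at probe sets it was also 3. It stayed at 4 only with no floor and at 1.5-fold. The number lower was 0 without _x_at and _s_at probe sets and 2 at a threshold of 1.5-fold. Of probe sets, also 4 higher and 1 lower as reported, 1 was higher with median centring or equal hybridisation controls and 2 with the floor 2 times as high. The probe sets higher were 3 with quantile, loess, the higher floor on both arrays or the pseudocount. Without _x_at and _s_at probe sets they were also 3, and they were 5 with no floor or at 1.5-fold. The probe sets lower were 2 with median centring, quantile, loess, equal hybridisation controls or no floor, 3 at 1.5-fold and 0 without _x_at and _s_at probe sets. Median centring and equal hybridisation controls put the median of all genes at -0.16 and -0.30, which lowers the difference of a gene above both floors by a constant. RARA and RARB changed sign, to -0.14 each, with equal hybridisation controls, and to -0.04 and -0.41 with the median of probe sets; neither was past 2-fold in any alternative. The 20 genes named from the other lists kept their direction in the alternatives that gave a value, an extension chosen after seeing the data; under 2-fold were ALDH16A1 (-0.33) and CYP26A1 (-0.74) with the floor 2 times as high, ALDH3B1 (0.92) without _x_at and _s_at probe sets, and TBL1X with loess (-0.95) and with the median of probe sets (-0.73). Over all alternatives, the 1.5-fold threshold included, the count past the threshold ran from 3 to 5 higher and 1 to 3 lower for the retinol and retinal enzymes (5 and 1 as reported), from 0 to 2 higher and 3 to 7 lower for the other aldehyde dehydrogenases (2 and 4), and from 5 to 10 higher and 2 to 5 lower for the responsive genes (8 and 5). No paired analysis was possible because each group has 1 array. Signals below the floor, 9 of the 23 probe sets on both arrays, limit what can be said of ALDH1A1 and of the dim probe sets of the receptors.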
